A study of Mus musculus with 18 samples.

Results

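The comparison described here is between hepatocytes of Mtdh knockout mice and hepatocytes of wild-type mice, both treated with the cytokine TNFa. It holds 6 of the 18 libraries in all, 3 per genotype, and they were taken by the treatment and genotype in their labels. The other 12 libraries are knockout and wild-type hepatocytes treated with TGFb or with medium conditioned by Kupffer cells, the macrophages of the liver, that had received Py8119-EVPs, as the labels name them. They entered the common model and a test of whether the genotype difference with TNFa departed from that in the other treatments. The mice were matched for age and carried no tumor, per the labels. There was no untreated group, so every value below is from treated cells and the response to TNFa itself was not measured. The labels used here do not state the dose and time of treatment, the strain and sex of the mice, the deleted part of Mtdh or the cells that lost it. The libraries of a group are labelled as biological replicates, but whether each came from its own mouse is not given, so the p-values measure the spread between these libraries.

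TNF is a cytokine that macrophages release during inflammation. Its main receptor on hepatocytes, TNFR1, recruits an adaptor complex that activates the IKK kinases, and these free NF-kappaB dimers to enter the nucleus. NF-kappaB then switches on chemokines, adhesion molecules, survival factors and its own inhibitors, while a second arm through ASK1 and JNK can lead to cell death. In hepatocytes TNF also raises acute-phase proteins and lowers genes of drug, bile acid and amino acid metabolism. Mtdh encodes metadherin (also called AEG-1 or LYRIC), a membrane- and RNA-associated protein that is known to bind the nuclease Snd1 and has been reported to act with the NF-kappaB subunit Rela.

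Mtdh itself (chromosome 15, 34082840 to 34145770 on mm39, as the deposited table lists it) had normalised values of 749, 829 and 581 in the knockout and 13063, 13037 and 12393 in the wild-type libraries. The groups were far apart, with a log2 difference of -4.17 ± 0.11, limma adjusted p = 1.7e-22, and every knockout library kept a low level of Mtdh reads. The part of the gene that these reads cover is not shown by a single value per gene. Snd1, its binding partner, read 1087, 1071 and 1283 in the knockout and 1263, 1152 and 1286 in the wild type (log2 difference -0.11 ± 0.12, not called). All values below are normalised values in the order of libraries 1, 2 and 3 of each genotype. Differences are knockout minus wild type on the scale log2(value + 1), so they understate the change of low genes. Each ± is the standard error of the fit with n = 3 libraries per group. A gene rose or fell where the adjusted p of the limma model, by the Benjamini-Hochberg method, was below 0.05.

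With TNFa, 1141 of 14455 tested genes (7.89%) differed between the genotypes, 606 (4.19%) higher and 535 (3.7%) lower in the knockout. These shares are the background for every count of called list members below. The lists and their members were chosen with earlier results of these data known, so a share beside the background is a description and not a test. The background holds for calls at the adjusted p. Counts of list members given at an unadjusted p with TNFa have no share over all tested genes beside them. They cannot be read against the shares above, which are for the adjusted p. Without wild-type library 3 the lower count was 284. The rises were larger: 267 of the higher genes had a log2 difference of at least 1, against 56 lower genes with one of -1 or beyond. The median absolute difference of the called genes was 0.61, and that over all tested genes, with its sign, was 0.02. Of the called genes, 1120 had no overlap between the 3 knockout and the 3 wild-type values, and 24.8% of all tested genes had none.

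**Figure D1:**
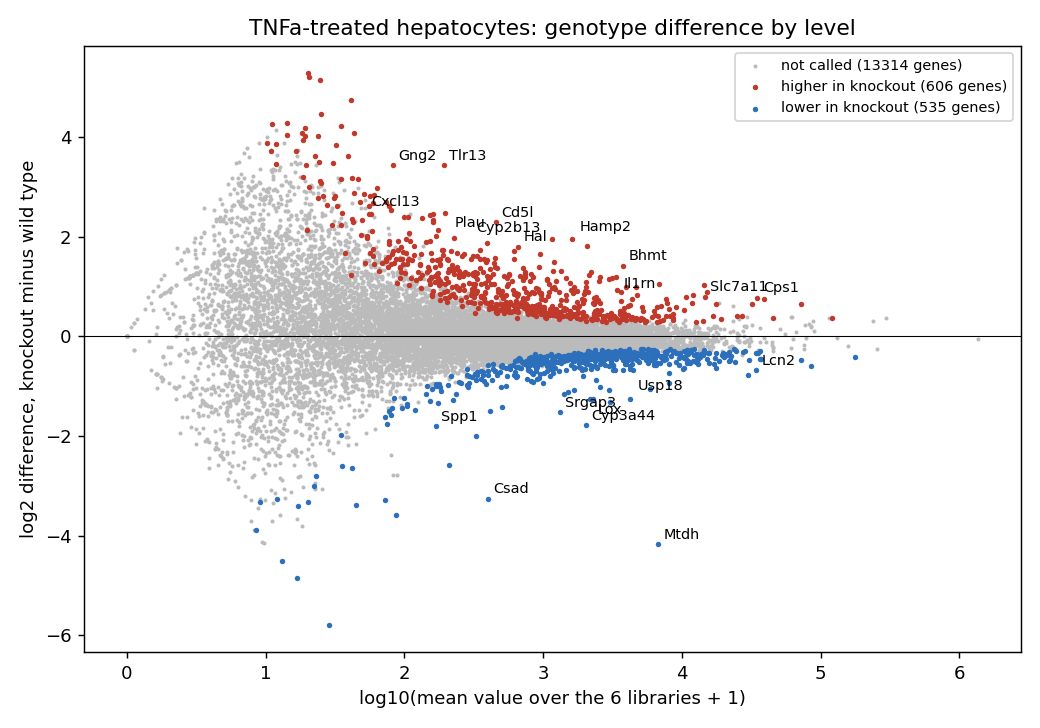
Log2 difference between knockout and wild-type libraries with TNFa (y axis) against the mean normalised value over the 6 libraries (x axis, log10), 1 point per tested gene, red where higher and blue where lower. Mtdh lies far below the other genes of its level at -4.17, and Csad lies at -3.26.

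The 6 libraries held an estimated 20.3 M to 30.0 M reads on protein-coding genes, and 14141 to 14837 genes had at least 1 estimated read. Hepatocyte markers were high in both genotypes: albumin (Alb) took between 5.83% and 6.28% of each library's values, and Cyp2e1, a pericentral P450, read 68608, 69279.9 and 69509 in the knockout and 65960.5, 64442 and 63941 in the wild type. RNA of other liver cells was present and moved with genotype. Of 24 Kupffer cell and macrophage markers 13 rose and 0 fell (limma; at an unadjusted p below 0.05, 17 were higher and 0 lower), with summed values of 7819 to 8767 in the knockout and 4094 to 4679 in the wild type. Of 22 markers of sinusoidal endothelium, the lining of the liver's capillaries, 7 rose, with sums of 7445 to 7986 against 4313 to 4778. Leaving out 1 library at a time gave between 3 and 5 such rises. Of 11 stellate cell markers 1 rose (sums 2279 to 2763 against 2078 to 2253, Acta2, Col1a1 and Hand2 listed at 0 throughout), and of 9 cholangiocyte markers 1 rose and 2 fell (sums 14910 to 15790 against 13619 to 15438). The stellate count was 0 without knockout library 1 or 3 or wild-type library 3, and 1 cholangiocyte marker fell without knockout library 3. The stellate markers Lrat (3.04 ± 1.08) and Dcn (0.67 ± 0.25) were not called, though each had knockout values above all wild-type values. Reln, with the largest values of that list, read 1327, 1201 and 1371 in the knockout and 1293, 1165 and 1197 in the wild type. Lymphocyte markers summed to 193 to 254 against 91.3 to 173. Of the 7 tested, 1 rose, Cd52 (4.02 ± 0.99, limma adjusted p = 0.0086), a call lost without wild-type library 3 and in a fit of the 6 TNFa libraries alone, with a difference of 2.46 at a pseudocount of 5, and the list's median log2 difference was 1.57. Cd8a (1.48 ± 0.71) and Ccl5 (1.57 ± 0.57) were not called, though their knockout values lay above all wild-type values, while the untested Cd3e and Cd4 lay between 0 and 9.11 in every library and Klrb1c was at 0. Monocyte and neutrophil markers (1 of 8 lower, Ly6g at 0 throughout) summed to 588 to 864 against 574 to 853. The lower call, Chil3, was lost without knockout library 3 or wild-type library 2 or 3. Cxcr2, the member with the largest values, read 382, 514 and 273 in the knockout and 458, 362 and 580 in the wild type. Ly6c2 (1.78 ± 1.32), Ccr2 (1.75 ± 0.98) and Itgam (1.29 ± 0.43) were not called, though their knockout values lay above all wild-type values. S100a8 (-2.91 ± 1.23), also not called, had knockout values below all wild-type values. Erythroid and platelet markers (1 of 5 lower, and 0 in 5 of the 6 fits without 1 library) summed to 113 to 162 against 251 to 281.

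The macrophage markers that rose included the scavenger protein Cd5l, which read 828, 747 and 695 in the knockout and 157, 184 and 125 in the wild type (2.29 ± 0.21, limma adjusted p = 6.1e-09), and the F4/80 antigen Adgre1, which read 1092, 1017 and 1021 in the knockout and 441, 419 and 422 in the wild type (1.29 ± 0.22, limma adjusted p = 0.00024). Clec4f, a lectin confined to Kupffer cells in the mouse liver, read 244, 184 and 93.04 in the knockout and 40.8, 59.97 and 10.7 in the wild type (2.38 ± 0.46, limma adjusted p = 0.00076). Lyz2, Csf1r, C1qc and Tyrobp rose too, by 1.499, 1.36, 1.92 and 3.85 on the log2 scale. Cd68 (log2 difference -0.20), Vsig4 (0.84) and Timd4 (-0.17) did not pass the test. In these bulk libraries fewer cells of a type and less RNA per cell cannot be told apart. The part of the macrophage and endothelial RNA in the results below was not tested, and their values are repeated beside the groups of genes that such cells also express.

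At the top of the TNF pathway, RNA of the receptors and adaptors mostly did not pass the test. Tnfrsf1a, which encodes TNFR1, had a log2 difference of -0.16 ± 0.15, and Tnfrsf1b, which encodes TNFR2, one of 0.22 ± 0.09. The adaptor Tradd read 233, 155 and 201 in the knockout and 298, 335 and 295 in the wild type (-0.67 ± 0.24, limma adjusted p = 0.083). The kinase Ripk1 (0.03 ± 0.11) and the ubiquitin ligases Traf2 (0.07 ± 0.16), Birc2 (-0.14 ± 0.15) and Birc3 (-0.32 ± 0.12) also did not pass. Of the 27 receptors and proximal signalling genes tested, 1 rose and 2 fell, shares of 3.70% and 7.41% beside the backgrounds of 4.19% and 3.7%.

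The clearest change in that layer was in Map3k5, which encodes ASK1, the kinase that links TNF receptors to JNK and p38. It read 313, 267 and 330.2 in the knockout and 558, 578 and 532 in the wild-type libraries, with no overlap, a difference of -0.88 ± 0.16, limma adjusted p = 0.00041. Cflar, which encodes the caspase-8 inhibitor c-FLIP, read 13578, 14692 and 13328 in the knockout and 10969.9, 11036 and 11852 in the wild type (0.30 ± 0.08, limma adjusted p = 0.014). Sharpin, a subunit of the linear ubiquitin ligase at TNFR1, read 127, 239 and 119 in the knockout and 276, 247 and 279.8 in the wild type (-0.80 ± 0.25, limma adjusted p = 0.045). The call of Map3k5 held in all 17 alternative settings, while that of Cflar was lost without knockout library 2 or wild-type library 1 or 2 (0.25, 0.28 and 0.28). That of Sharpin was lost without any 1 library other than knockout library 2 (-0.85 to -0.61), and also after scaling to equal totals (-0.77), without the filter, with the replicate block and in a fit of the 6 TNFa libraries alone.

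None of the 11 genes for IKK and NF-kappaB subunits and none of the 15 for feedback inhibitors was called by limma. Beside the 7.89% of all tested genes that were called, 0 calls in lists this small does not set them apart from other genes. At an unadjusted p below 0.05 there were 2 higher and 2 lower in each list. The kinase Ikbkb differed by -0.18 ± 0.14, and the subunits Rela by -0.05 ± 0.14, Nfkb1 by 0.20 ± 0.11 and Nfkb2 by -0.46 ± 0.17. The inhibitors, which NF-kappaB itself switches on, included Nfkbia, which encodes IkappaB-alpha and read 1498, 1576 and 1844 in the knockout and 1397, 1587 and 1583 in the wild type (0.10 ± 0.13), and Tnfaip3, which encodes A20 and read 2716, 2685 and 2903 in the knockout and 2792, 3023 and 3102 in the wild type (-0.10 ± 0.10). The genotypes overlapped for both. Among classical NF-kappaB targets, the monocyte chemokine Ccl2 (0.01 ± 0.17), the adhesion molecule Icam1 (-0.04 ± 0.15) and the mitochondrial superoxide dismutase Sod2 (0.01 ± 0.09) also did not pass the test.

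Among the targets some genes rose and others fell. Of 37 TNF-induced effector and adhesion genes 6 rose and 2 fell, and of 16 tested chemokines 3 rose and 0 fell (limma; at an unadjusted p below 0.05, 7 chemokines were higher and 0 lower). Tnfaip2, a classical TNF-induced gene, read 1251, 1118 and 1263 in the knockout and 555, 605 and 737 in the wild type (0.94 ± 0.16, limma adjusted p = 0.00011). Plau, which encodes the protease urokinase, read 373, 287 and 333 in the knockout and 46.9, 94.1 and 45.2 in the wild type (2.47 ± 0.36, limma adjusted p = 2.4e-05). The collagenase Mmp13 read 151, 95.8 and 132 in the knockout and 24.2, 9.11 and 26.8 in the wild type (2.702 ± 0.60, limma adjusted p = 0.0034). All 3 knockout libraries lay above all 3 wild-type libraries for each of these. Vcam1, which holds leukocytes to the vessel wall, read 1028, 983 and 1143 in the knockout and 679, 654 and 737 in the wild type (0.61 ± 0.17, limma adjusted p = 0.025). Bcl2a1d and Bcl2a1b, near-identical copies of an anti-apoptotic gene that is high in white blood cells, were called higher. They were listed at 51.5, 36.8 and 27.97 and at 18.2, 41.8 and 18.8 in the knockout and at or below 1.22 in the wild type. Reads can be split between such copies, so these values are uncertain, and the call of Bcl2a1b was lost without any 1 of the 6 libraries. Falls were found for the iron-binding lipocalin Lcn2, which read 28468, 24134 and 26250.3 in the knockout and 41932, 39306 and 44614 in the wild type (-0.68 ± 0.10, limma adjusted p = 2.2e-05), and for the bacterial lipoprotein receptor Tlr2, which read 473, 495 and 451 in the knockout and 694, 680.2 and 979 in the wild type (-0.71 ± 0.18, limma adjusted p = 0.011).

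The chemokines that rose were Ccl9, a macrophage attractant that read 1843, 1979 and 1827 in the knockout and 996, 1175 and 1010.4 in the wild type (0.83 ± 0.12, limma adjusted p = 2.1e-05), the B cell attractant Cxcl13, which read 246, 207 and 346 in the knockout and 67.3, 22.8 and 64.4 in the wild type (2.46 ± 0.48, limma adjusted p = 0.00089), and Cxcl12, the ligand of Cxcr4, which read 1041, 1039 and 1349 in the knockout and 704, 712 and 856 in the wild type (0.59 ± 0.12, limma adjusted p = 0.0016). The neutrophil chemokine Cxcl1 (0.38 ± 0.17) and the T cell attractant Cxcl10 (0.50 ± 0.20) were not called. Beside these rises stand the macrophage and endothelial sums, which in the knockout were also above the wild type in every library pair. The calls of Vcam1 and Tlr2 depended on single libraries. Vcam1 was lost without knockout library 1 or 3 or wild-type library 1 or 2 (0.54 to 0.62), and Tlr2 without wild-type library 3 (-0.54). No gene of the receptor, NF-kappaB, inhibitor, chemokine or effector lists passed the test of a difference from the other treatments, which 1.09% of all tested genes passed.

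**Figure D2:**
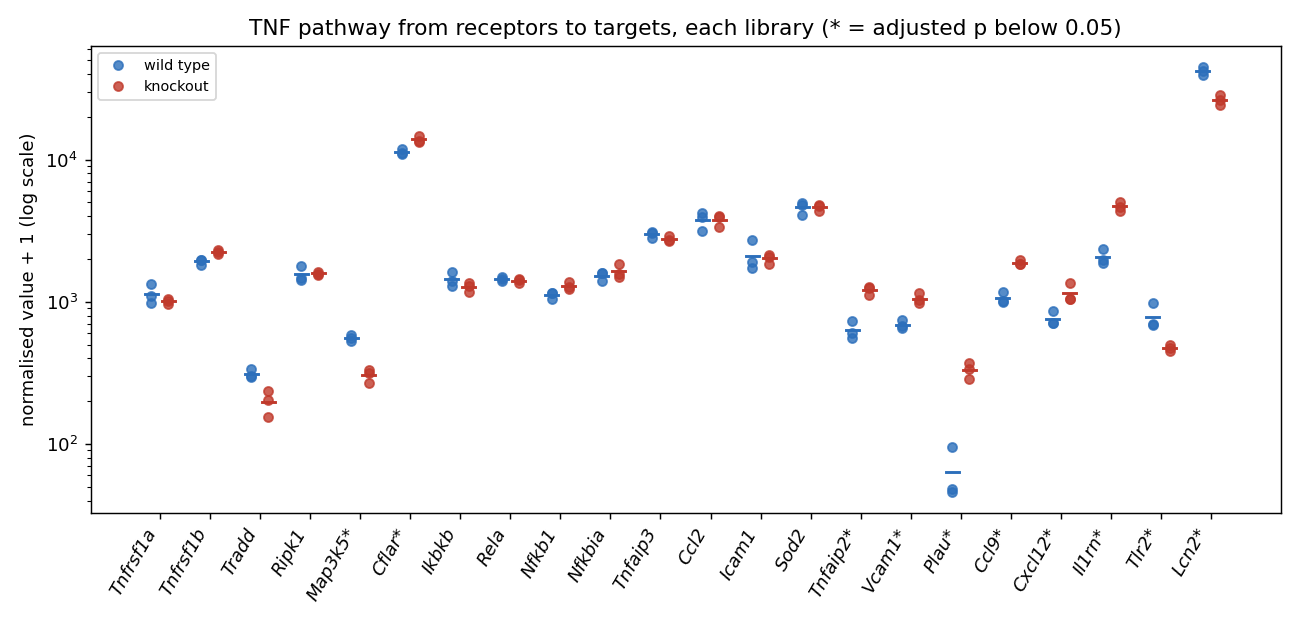
Normalised value plus 1 in each library (log axis) for TNF pathway genes ordered from receptors to targets, blue for wild type and red for knockout, with the group mean as a bar and a star where the adjusted p was below 0.05. The points of both genotypes overlap or lie close together from Tnfrsf1a to Sod2 except for Map3k5 and Cflar, and separate for Tnfaip2, Plau, Ccl9, Cxcl12, Il1rn and Lcn2.

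Tnfaip2 was the 1 called TNF effector gene, of 6 matched to RefSeq promoters, with a kappa B match in the 250 bases before its start. The pattern searched was GGANNTTCC on both strands, and 4.12% of 27025 genes hold it in a window of that length. Of the 29 effector genes with a promoter entry 7 hold it. The window is at chr12:111442411-111442660 on the plus strand of GRCm38.p6, from RefSeq. It is printed because this gene combined a clear rise with a match, which lies 87 to 79 bases upstream of the start and is in capitals.
Tnfaip2: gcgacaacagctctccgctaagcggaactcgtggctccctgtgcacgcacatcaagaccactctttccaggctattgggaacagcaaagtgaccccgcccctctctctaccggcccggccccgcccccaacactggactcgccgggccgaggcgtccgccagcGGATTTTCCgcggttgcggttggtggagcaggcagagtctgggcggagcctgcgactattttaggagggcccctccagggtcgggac

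Acute-phase proteins, which the liver secretes during inflammation, moved in both directions, with 4 of 34 tested higher and 8 lower (11.8% and 23.5%). Ceruloplasmin (Cp), the copper oxidase of plasma, read 14192, 14501 and 12614 in the knockout and 19607, 18411 and 22935 in the wild type (-0.56 ± 0.09, limma adjusted p = 5.3e-05). The serpin Serpina3k (-0.59 ± 0.10), the hyaluronan-binding chain Itih3 (-0.41 ± 0.08) and serum amyloid P (Apcs, -0.74 ± 0.16) fell as well. The IL-1 receptor antagonist Il1rn, which blocks IL-1 signalling, moved the other way, with 4364, 5062 and 4598 in the knockout and 1857, 1976 and 2366 in the wild-type libraries (1.18 ± 0.12, limma adjusted p = 2.4e-08). The serum amyloid A genes Saa1 (0.21 ± 0.17), Saa2 (0.29 ± 0.26) and Saa3 (0.35 ± 0.20), which are strongly induced in inflamed liver, did not pass the test. Without knockout library 1 or wild-type library 3, 5 members of the list were lower in place of 8.

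Hepcidin, the hormone that limits iron export by degrading ferroportin, rose. Hamp read 1317, 1437 and 1686 in the knockout and 723, 649.5 and 613 in the wild type (1.16 ± 0.10, limma adjusted p = 2.4e-09), and its close copy Hamp2 read 2615, 2637 and 2463 in the knockout and 821, 586 and 598 in the wild type (1.96 ± 0.12, limma adjusted p = 2.5e-12). The lowest knockout value of either gene was above the highest wild-type value, but reads of the 2 copies can be split, so each value is uncertain. Ferroportin RNA (Slc40a1), the iron exporter of hepatocytes and of macrophages, whose marker sums were also higher, rose as well, with 2808, 2731 and 2627 in the knockout and 1616, 1244 and 1551 in the wild type (0.90 ± 0.11, limma adjusted p = 9.7e-07). The zinc and iron importer Slc39a14 (-0.53) and the ferrireductase Steap3 (-0.76) fell. In all, 4 of 35 iron and heme genes rose and 4 fell.

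Interferon-stimulated genes, which interferons switch on through factors that include Stat2 and Irf9, were lower in the knockout where they were called. Of 53 tested, 15 fell (28.3%, beside 3.7% of all tested genes) and 0 rose (limma; at an unadjusted p below 0.05, 27 were lower and 3 higher). The median log2 difference of the list was -0.36, beside 0.02 for all tested genes. Usp18, which removes the ubiquitin-like protein Isg15 and damps interferon receptors, read 3570.3, 3103 and 3272 in the knockout and 4672, 5164 and 5793 in the wild type (-0.65 ± 0.11, limma adjusted p = 0.00011). Trim25, a ubiquitin ligase that activates the RNA sensor Rigi, read 6799, 6138 and 6535 in the knockout and 8914, 7896 and 9326 in the wild type (-0.42 ± 0.08, limma adjusted p = 0.0010). Parp12, an antiviral ADP-ribosyltransferase, read 1454, 1362 and 1625 in the knockout and 1961, 2121 and 2059 in the wild type (-0.47 ± 0.11, limma adjusted p = 0.0051). For these 3 genes the genotypes did not overlap. Stat2 itself read 988, 766 and 1273 in the knockout and 1424, 1503 and 1892 in the wild type (-0.69 ± 0.16, limma adjusted p = 0.0053), and the guanylate-binding protein Gbp2, which attacks pathogen vacuoles, read 700.2, 530.0 and 485 in the knockout and 964, 919 and 1325 in the wild type (-0.90 ± 0.21, limma adjusted p = 0.0062). Ifit1, which binds viral RNA that lacks the host cap, read 3274, 3112 and 3771 in the knockout and 4940.3, 4221 and 7557 in the wild type (-0.68 ± 0.17, limma adjusted p = 0.011) and has close copies that can share its reads. The factors Irf1 (-0.58 ± 0.20), Irf7 (-0.15 ± 0.25) and Irf9 (-0.12 ± 0.13) were not called.

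The count of lower interferon genes rested on single libraries. It was 4 without wild-type library 3 and 8 without knockout library 2, between 4 and 13 over all 6 libraries left out, and 8 without the filter on low values. Usp18, Trim25 and Parp12 stayed called in all 17 settings. Stat2 was lost without knockout library 2 (-0.51) or wild-type library 3 (-0.57), Gbp2 without wild-type library 3 (-0.74), and Ifit1 without knockout library 2 (-0.62) or wild-type library 3 (-0.44), without the filter and with robust priors. MHC class I genes, which present peptides to CD8 T cells, mostly did not pass the test. H2-K1 (-0.14 ± 0.10), H2-D1 (0.01 ± 0.09) and beta-2 microglobulin (B2m, -0.02 ± 0.12) are the parts of the surface complex. Of the 23 genes for class I and its peptide loading, 3 fell, the chaperones Calr and Pdia3 and the peptide transporter Tap1 (-0.62 ± 0.16, limma adjusted p = 0.013), and that count was 0 without wild-type library 3 and 1 without knockout library 2. Cd274, which encodes the T cell inhibitor PD-L1, differed by 0.40 ± 0.14 and was not called.

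Promoters of the interferon genes are shown for called members with a match to the interferon-stimulated response element, searched as GAAANNGAA on both strands. That pattern was found in 8.18% of all 27025 genes with a promoter entry, in 19 of the 39 interferon genes matched to RefSeq and in 6 of the 10 matched genes that fell. The 4 of those 6 with the smallest p-values are printed, as windows of 250 bases before the start, all on the plus strand of GRCm38.p6 from RefSeq, with the matched bases in capitals. Those of Trim25 lie 9 to 1 bases upstream of the start at chr11:88999153-88999402, those of Stat2 221 to 213 at chr10:128270248-128270497 and those of Gbp2 58 to 50 at chr3:142620413-142620662. Ifit1 (chr19:34640639-34640888) has 3 matches, of which 2 overlap (109 to 101 and 103 to 95) and the innermost lies at 84 to 76.
Trim25: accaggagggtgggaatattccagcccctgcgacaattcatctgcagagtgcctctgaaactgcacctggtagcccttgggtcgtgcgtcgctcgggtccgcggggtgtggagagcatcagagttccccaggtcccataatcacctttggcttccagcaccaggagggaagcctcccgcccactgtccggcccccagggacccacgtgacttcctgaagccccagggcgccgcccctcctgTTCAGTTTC
Stat2: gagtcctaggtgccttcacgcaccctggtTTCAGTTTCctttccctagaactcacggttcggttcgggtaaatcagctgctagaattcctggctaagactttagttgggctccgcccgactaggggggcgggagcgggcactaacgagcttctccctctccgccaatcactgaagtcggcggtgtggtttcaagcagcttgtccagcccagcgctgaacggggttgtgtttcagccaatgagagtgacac
Gbp2: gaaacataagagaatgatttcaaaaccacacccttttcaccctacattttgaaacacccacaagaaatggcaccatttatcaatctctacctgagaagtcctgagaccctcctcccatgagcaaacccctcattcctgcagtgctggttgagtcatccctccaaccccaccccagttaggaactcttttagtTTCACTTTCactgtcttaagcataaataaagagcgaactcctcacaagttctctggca
Ifit1: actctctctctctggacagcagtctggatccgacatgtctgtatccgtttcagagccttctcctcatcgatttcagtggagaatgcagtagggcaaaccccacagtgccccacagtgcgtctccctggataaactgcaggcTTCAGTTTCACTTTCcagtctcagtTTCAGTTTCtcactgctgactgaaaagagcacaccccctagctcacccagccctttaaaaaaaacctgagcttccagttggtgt
All of these matches read GAAANNGAA on the strand opposite to the gene. A match describes the letters in this window and is not evidence of binding.

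Amino acid breakdown was the list with the largest share of rises among the metabolic lists tested. Of 44 genes, 27 rose (61.4%, beside 4.19% of all tested genes) and 0 fell (limma; at an unadjusted p below 0.05, 29 were higher and 0 lower), with a median log2 difference of 0.65. Histidine ammonia-lyase (Hal), which opens histidine degradation, read 979, 1039 and 1056 in the knockout and 287, 267 and 329 in the wild type (1.80 ± 0.14, limma adjusted p = 2.4e-10). No wild-type library came near the knockout values. Amdhd1 (rise of 1.56), Uroc1 (0.63) and Ftcd (0.89), which carry out the following steps of the same route, also rose. Tryptophan 2,3-dioxygenase (Tdo2), the entry to the kynurenine pathway, read 5106, 5428 and 5129 in the knockout and 2748, 2356 and 2819.6 in the wild type (0.99 ± 0.09, limma adjusted p = 2.1e-09), and Kmo (0.72) and Kynu (1.11) of that pathway rose with it.

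Tyrosine aminotransferase (Tat, 0.90), Hpd (0.99), Hgd (1.19) and Gstz1 (0.68), enzymes of tyrosine degradation, rose as well. Ornithine aminotransferase (Oat) read 2997, 2386 and 2959 in the knockout and 1342, 1297 and 1244 in the wild type (1.10 ± 0.11, limma adjusted p = 1.4e-08), and alanine-glyoxylate aminotransferase (Agxt) read 1039, 1249 and 840.4 in the knockout and 369, 427 and 396 in the wild type (1.37 ± 0.15, limma adjusted p = 1.7e-07). Serine dehydratase (Sds), which turns serine into pyruvate, rose by 1.499 ± 0.22 (limma adjusted p = 2.2e-05). The genes of this list named here were called in all 17 settings, and the count of rises was 24 to 26 when 1 library was left out.

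Genes for every enzyme step of the urea cycle from Cps1 to Arg1, which turns ammonia from amino acids into urea, rose. Carbamoyl phosphate synthetase (Cps1) read 45247, 43565 and 44015 in the knockout and 27043, 24414 and 26369.7 in the wild type (0.77 ± 0.09, limma adjusted p = 3.0e-07). Ornithine transcarbamylase (Otc) rose by 0.63, argininosuccinate synthase (Ass1) by 0.89, argininosuccinate lyase (Asl) by 0.50, and the mitochondrial ornithine carrier Slc25a15 by 0.73. Arginase (Arg1) read 2663, 2391 and 2796 in the knockout and 1566, 1404 and 1220.4 in the wild type (0.91 ± 0.10, limma adjusted p = 1.2e-07). Gls2, the liver glutaminase of periportal cells, rose by 0.91 ± 0.10 (limma adjusted p = 3.7e-07), and glutamine synthetase (Glul), of pericentral cells, by 0.47 ± 0.11 (limma adjusted p = 0.0061). In all, 11 of 23 genes of the cycle and of nitrogen transport rose and 1 fell, Gpt2 (-0.25), whose call was lost in each fit without 1 library.

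**Figure D3:**
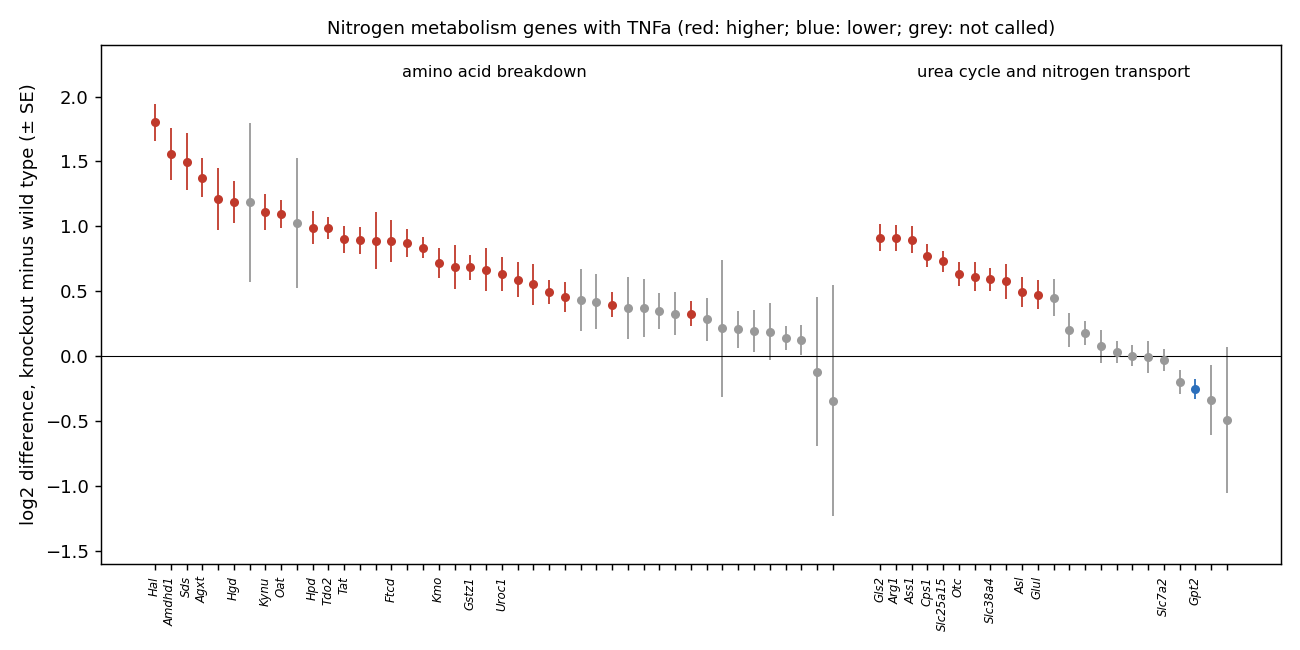
Log2 difference between knockout and wild type with its standard error (y axis) for every tested gene of amino acid breakdown and of the urea cycle and nitrogen transport, sorted within each list. Genes named in the text carry their symbol. Most points are red (higher), and Gpt2 is the 1 blue point.

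Several methionine and one-carbon enzymes rose, and a gene of taurine synthesis fell steeply. Bhmt, which remethylates homocysteine with betaine, read 5929.6, 4862 and 5727 in the knockout and 2111, 1798 and 2274 in the wild type (1.42 ± 0.09, limma adjusted p = 7.6e-12). Mat1a, the liver enzyme that makes S-adenosylmethionine, rose by 1.03 ± 0.09, Gnmt, which consumes it, by 1.29 ± 0.10, and Cbs, which leads homocysteine to cysteine, by 0.69 ± 0.13. Csad, cysteine sulfinic acid decarboxylase, makes the precursor of taurine. It read 62.7, 60.9 and 108 in the knockout and 644, 729 and 799 in the wild-type libraries, a log2 difference of -3.26 ± 0.24, limma adjusted p = 6.5e-11. The groups did not overlap, and even the highest knockout value was far below the lowest wild-type value. Cdo1, the step before it, differed by -0.09 ± 0.09 and was not called. Of 37 genes of sulfur amino acids, taurine and one-carbon metabolism, 11 rose (29.7%) and Csad fell. Csad lies on chromosome 15 as Mtdh does, with a start at 102085434 on mm39.

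Several genes of glucose release rose, and several of glycolysis and glycogen handling fell. The glucose transporter Slc2a2, known as GLUT2, read 3749, 3673 and 3265 in the knockout and 1652, 1606 and 1444 in the wild type (1.18 ± 0.09, limma adjusted p = 7.4e-11). Pck1, which starts gluconeogenesis, rose by 1.17 ± 0.11, the fructose bisphosphatase Fbp1 by 0.67 ± 0.10 and glucose-6-phosphatase (G6pc) by 0.84 ± 0.17. Liver glycogen synthase (Gys2) rose by 1.32 ± 0.22. Ugp2 (-0.43), which makes UDP-glucose, fell. The glycolytic enzymes Gapdh (-0.37 ± 0.11), Eno1 (-0.33 ± 0.10) and Pgk1 (-0.29 ± 0.09) fell too. Of 42 genes 8 rose (19.0%) and 7 fell (16.7%). The lower count was 3 without knockout library 2 or wild-type library 3 and 4 without wild-type library 1, and the fits without knockout library 2 or wild-type library 3 lost Gapdh, Eno1 and Pgk1 (differences of -0.34 to -0.24). Gapdh was also lost without wild-type library 1, Pgk1 without knockout library 1 or wild-type library 2, and Eno1 without any of these. Gapdh, Eno1 and Pgk1 were lost with quantile normalization (-0.33 to -0.21) and without the filter, and Eno1 and Pgk1 after scaling to equal totals.

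Fatty acid genes held fewer calls, in both directions. Of 35 fatty acid oxidation genes 6 rose (17.1%) and 0 fell (limma; at an unadjusted p below 0.05, 8 were higher and 7 lower). Hacl1, which shortens branched fatty acids in peroxisomes, read 1254, 1362 and 1587 in the knockout and 970.3, 843 and 917 in the wild type (0.62 ± 0.10, limma adjusted p = 0.00015), and the peroxisomal fatty acid importer Abcd2 rose by 1.10 ± 0.22. The fatty acid transporter Cd36 rose by 1.10 ± 0.11 and is also expressed by macrophages and endothelium, whose marker sums rose here. The mitochondrial citrate carrier Slc25a1, which feeds fatty acid synthesis, fell (-0.60 ± 0.08), and so did Gpam (-0.37 ± 0.08), the first acyltransferase of triglyceride synthesis, and the lipid droplet coat protein Plin3 (-0.58 ± 0.11). Apolipoprotein A1 (Apoa1), the main protein of HDL, read 10732, 9784 and 11531 in the knockout and 15619.9, 16007 and 15217 in the wild type (-0.55 ± 0.10, limma adjusted p = 0.00064), and the cholesterol exporter Abcg1, another gene that macrophages express, rose by 1.54 ± 0.33.

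Cholesterol synthesis fell where it was called. Of 27 genes 9 fell (33.3%) and 0 rose (limma; at an unadjusted p below 0.05, 13 were lower and 1 higher), with a median log2 difference of -0.27. Fdps, which makes farnesyl diphosphate, read 6008, 5563 and 6566 in the knockout and 8995, 10630.4 and 10476 in the wild type (-0.73 ± 0.11, limma adjusted p = 1.8e-05). Nsdhl, a late demethylation enzyme, fell (-0.51 ± 0.11), and Hmgcs1, which makes HMG-CoA, read 18419, 17621 and 17798 in the knockout and 21473, 22546 and 26425 in the wild type (-0.38 ± 0.09, limma adjusted p = 0.0041). The regulator Srebf2 had a log2 difference of -0.36 ± 0.10 (limma adjusted p = 0.019). The count was 3 without wild-type library 3 and 5 without knockout library 3, and Hmgcs1 (-0.29) and Srebf2 (-0.29) were among those lost without wild-type library 3. Srebf2 was also lost without knockout library 2 or 3. Hmgcs1 was the 1 of 19 matched cholesterol genes with the sterol response element TCACNCCAC, on either strand, in the 250 bases before its start, and 1.22% of all genes with a promoter entry hold it. The window is at chr13:119690101-119690350 on the plus strand of GRCm38.p6, from RefSeq, and the match, in capitals, lies 137 to 129 bases upstream.
Hmgcs1: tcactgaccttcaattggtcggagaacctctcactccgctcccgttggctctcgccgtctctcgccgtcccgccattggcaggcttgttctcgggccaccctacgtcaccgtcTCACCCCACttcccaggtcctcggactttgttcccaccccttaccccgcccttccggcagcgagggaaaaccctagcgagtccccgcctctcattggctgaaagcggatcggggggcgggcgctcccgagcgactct

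Several bile acid genes rose in synthesis and in transport. Of 21 synthesis genes 4 rose and 1 fell, a lower count that was 0 without wild-type library 1 and 2 without knockout library 1. Cyp7a1, the rate-limiting enzyme of bile acid synthesis, read 281, 298 and 247 in the knockout and 153, 169 and 143 in the wild type (0.82 ± 0.21, limma adjusted p = 0.010), and the reductase Akr1d1 rose by 1.06 ± 0.10. On the blood side of the cell, the uptake carriers Slc10a1 (NTCP) and Slco1b2 rose by 0.88 ± 0.14 and 0.79 ± 0.08. On the bile side, the bile salt pump Abcb11 rose by 0.47 ± 0.10, the conjugate pump Abcc2 by 0.45 ± 0.09 and the sterol exporter subunit Abcg8 by 1.01 ± 0.19. Of 27 transporters 9 rose (33.3%) and 3 fell; without wild-type library 1 or 3 the lower count was 1.

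Enzymes of drug and steroid metabolism changed in both directions within the same families. Of 39 P450 genes of family 2, 12 rose and 3 fell, and of 23 in families 1, 3 and 4, 4 rose and 6 fell. Cyp2b13 read 1868, 1674 and 1982 in the knockout and 576, 379 and 498 in the wild type (1.94 ± 0.12, limma adjusted p = 1.9e-12), while Cyp3a44 read 904, 892 and 963 in the knockout and 3148, 3293 and 3039.7 in the wild type (-1.78 ± 0.10, limma adjusted p = 9.1e-13). Cyp2c69 (-1.25 ± 0.09) and Cyp3a41a (-0.77 ± 0.10) fell, and Cyp2c38 rose (1.21 ± 0.19). Cyp1a2, the pericentral target of the Ah receptor, rose by 0.74 ± 0.10. Glutathione transferases, which couple glutathione to toxins, rose at 10 of 23, with Gstm3 at 1.55 ± 0.34 and Gstt3 at 1.16 ± 0.16. The 1 that fell, Gstp1 (-0.38 ± 0.12), was lost without knockout library 1 or 2 or wild-type library 1 or 3, with quantile normalization, after scaling to equal totals and without the filter. Among sulfotransferases 8 of 15 rose and 2 fell. Sult1d1 rose by 0.74 ± 0.12 and Sult3a1 read 160.0, 267 and 225 in the knockout and 666, 576 and 576 in the wild type (-1.505 ± 0.19, limma adjusted p = 1.5e-06). Cyp2b13, Cyp2c38, Cyp2c69, Cyp3a41a, Cyp3a44, Gstm3 and Sult3a1 belong to clusters of similar genes, so reads can be split between copies and their values are uncertain.

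Many of these enzymes are known to differ between male and female livers. Of 30 genes known to be higher in females 10 rose and 10 fell, and of 25 known to be higher in males 2 rose and 5 fell. Among the rises were the female-biased Cyp17a1 (1.28 ± 0.18) and the male-biased Cyp2d9 (2.38 ± 0.42), which has similar genes that can share its reads. Values of the female-biased list summed to 67285 to 72460 in the knockout and 94819 to 99026 in the wild type. Its median log2 difference was -0.01. Values of the male-biased list summed to 25893 to 27970 against 28717 to 32484, with a median log2 difference of -0.19. Neither direction was shared within a list. Of 4 Y-linked genes, Uty read 54.6, 28.01 and 55.00 in the knockout and 30.4, 33.1 and 16.9 in the wild type and Kdm5d read 45.9, 42.5 and 70.1 in the knockout and 34.4, 77.3 and 43.7 in the wild type, Ddx3y read between 0 and 3.01, and Eif2s3y was listed at 0 in all 6 libraries. Neither Uty (0.75 ± 0.67) nor Kdm5d (0.08 ± 0.48) was called. Without wild-type library 2, 6 female-biased genes rose, and the lower male-biased count ranged from 1 to 4 when 1 library was left out.

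Several targets of the antioxidant factor NRF2 rose, among them genes of the route to glutathione. Slc7a11, the cystine importer, read 17487, 21276 and 16984 in the knockout and 9911, 10622 and 11474 in the wild type (0.80 ± 0.11, limma adjusted p = 7.8e-06). Gclc, the catalytic subunit of the rate-limiting enzyme of glutathione synthesis, read 38674, 43180.4 and 36492 in the knockout and 25542, 25137 and 24697 in the wild type (0.65 ± 0.09, limma adjusted p = 1.1e-05), and the modifier subunit Gclm rose by 0.51 ± 0.10. Thioredoxin reductase (Txnrd1) rose by 0.65 ± 0.08, sulfiredoxin (Srxn1) by 0.41 ± 0.08, catalase (Cat) by 0.52 ± 0.09 and heme oxygenase (Hmox1) by 0.37 ± 0.08. Nqo1, a widely used NRF2 target, differed by 0.31 ± 0.26 and was not called. Of 33 genes 8 rose (24.2%) and 3 fell, with 1 or 2 lower when any 1 library was left out. The antioxidant response element TGACNNNGC, searched on both strands in the 250 bases before the start, was found in 11.5% of all genes with a promoter entry and in 7 of 30 matched NRF2 genes, among them Gclm and Txnrd1 of the 8 matched and called. Gclm is printed as the subunit gene with a match, in capitals, 134 to 126 bases upstream on the opposite strand, at chr3:122245307-122245556 on the plus strand of GRCm38.p6, from RefSeq.
Gclm: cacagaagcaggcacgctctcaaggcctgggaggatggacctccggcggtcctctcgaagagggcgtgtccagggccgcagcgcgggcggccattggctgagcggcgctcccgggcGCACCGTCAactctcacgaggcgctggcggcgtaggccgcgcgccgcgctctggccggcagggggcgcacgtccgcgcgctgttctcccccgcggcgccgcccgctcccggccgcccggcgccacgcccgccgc

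Stress genes of the endoplasmic reticulum and of amino acid shortage were lower where called, apart from Slc7a11. Of 42 genes 8 fell (19.0%) and 1 rose. Ddit4 (-0.75 ± 0.16), an inhibitor of mTORC1, and the VLDL receptor (Vldlr, -0.46 ± 0.08) fell. The endoplasmic reticulum chaperone Hsp90b1 read 7915, 9332 and 7087 in the knockout and 11329, 10400.4 and 10838 in the wild type (-0.43 ± 0.10, limma adjusted p = 0.0045), and its call was lost without knockout library 3 (-0.34). Hspa5, which encodes the master chaperone BiP, differed by 0.21 ± 0.08 and was not called. The lower count was 5 without knockout library 2 or wild-type library 1 or 3.

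Several genes of cell contacts and of dedifferentiation were lower. Of 26 hepatocyte junction genes 6 fell (23.1%) and 3 rose. The desmosomal genes Dsp (-0.54 ± 0.09), Jup (-0.64 ± 0.12) and Dsg2 (-0.39 ± 0.08) fell, as did the tight junction genes Cldn2 (-0.92 ± 0.14) and Cgn (-0.64 ± 0.11). The largest of the 3 rises was that of connexin 43 (Gja1, 1.25 ± 0.26), which is also expressed by endothelium and stellate cells. Osteopontin (Spp1), which bile duct cells and injured hepatocytes make, read 63.1, 102 and 60.3 in the knockout and 224, 290.0 and 264 in the wild type (-1.81 ± 0.27, limma adjusted p = 2.8e-05). The collagen cross-linking enzyme Lox read 1219, 1291 and 1320.0 in the knockout and 2855, 3051 and 3321 in the wild type (-1.27 ± 0.13, limma adjusted p = 8.5e-08). S100a6 (-0.78 ± 0.14) and the chromatin protein Hmga2 (-0.53 ± 0.11), both raised in dedifferentiating liver cells, fell. In the list of 22 ductal and dedifferentiation genes 6 fell and 0 rose (limma; at an unadjusted p below 0.05, 10 were lower and 2 higher). Of 39 hepatocyte transcription factors 4 fell and 0 rose (limma; at an unadjusted p below 0.05, 11 were lower and 2 higher). They were Onecut2 (-0.49 ± 0.10), Prox1 (-0.66 ± 0.16), Hnf4a (-0.38 ± 0.11) and Xbp1 (-0.30 ± 0.10). Hnf4a was lost without knockout library 2 or wild-type library 1 or 3 (-0.36 to -0.24), and Xbp1 without any 1 library other than knockout library 2 (-0.32 to -0.24).

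**Figure D4:**
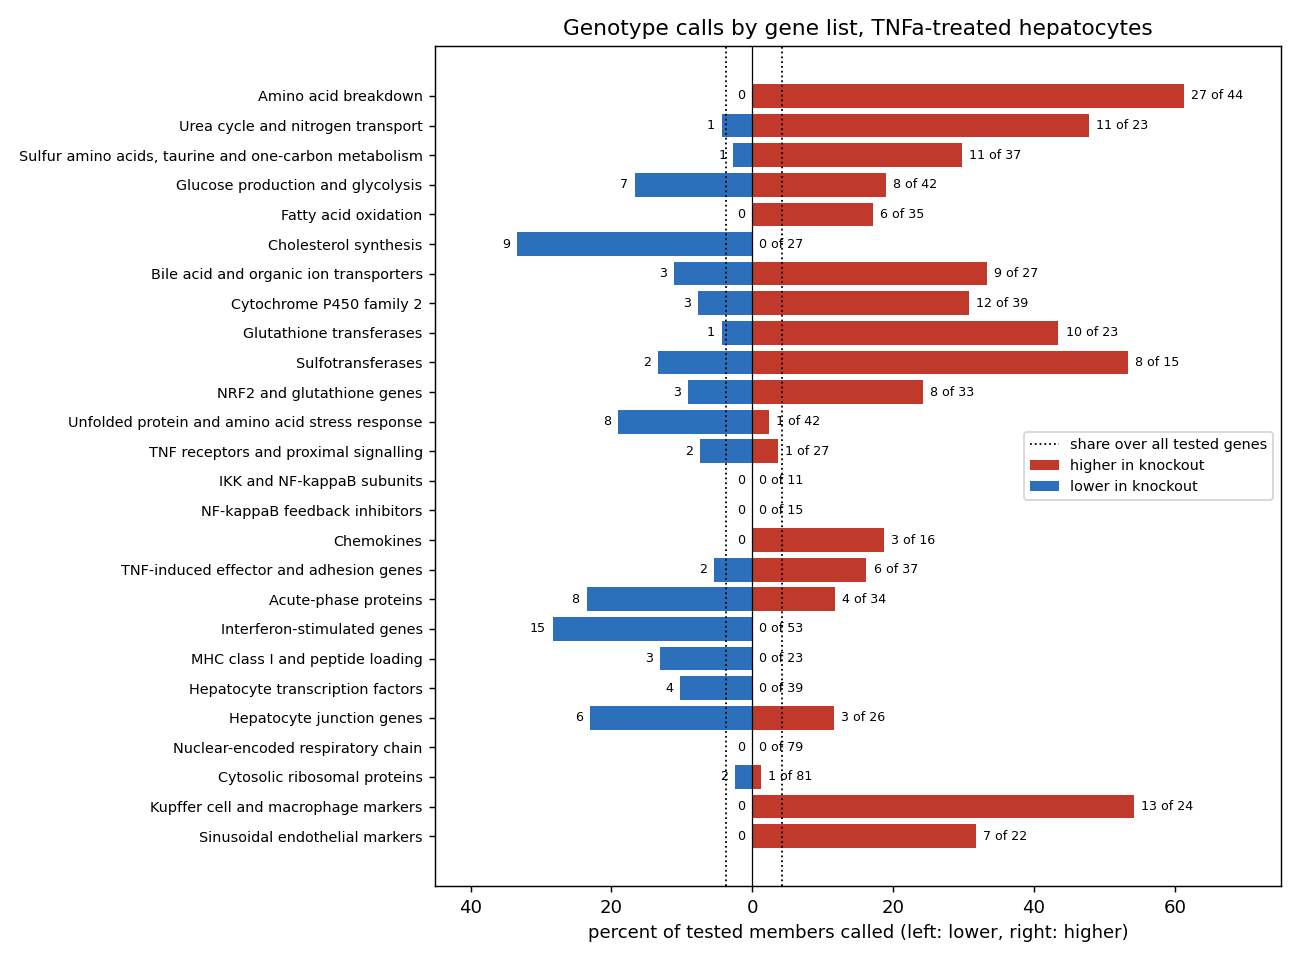
Percent of tested members called higher (red, to the right) and lower (blue, to the left) in the knockout for 26 gene lists, with the counts at the bar ends and dotted lines at the shares over all tested genes. Amino acid breakdown reaches 27 of 44 on the higher side, interferon-stimulated genes 15 of 53 and cholesterol synthesis 9 of 27 on the lower side. The IKK and NF-kappaB list, with only 11 tested genes, and the respiratory chain list, with 79, show no call. The lists were chosen with earlier results of these data known.

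Few genes of the housekeeping machinery were called. Of 79 nuclear-encoded respiratory chain genes 0 were called (limma; at an unadjusted p below 0.05, 2 were higher and 2 lower), and of 81 cytosolic ribosomal protein genes 1 rose and 2 fell. Without knockout library 1, 1 respiratory chain gene fell. The rise of a ribosomal protein gene was lost without knockout library 2 or 3 or wild-type library 2. The falls numbered 0 without knockout library 2, 1 without knockout library 1 or wild-type library 2 or 3, and 6 in a fit of the 6 TNFa libraries alone. Mitochondrially encoded genes had a median log2 difference of 0.39 and 2 of 13 rose, mt-Cytb (0.75 ± 0.19) and mt-Atp6 (0.66 ± 0.18). They took 2.97% of the values in wild-type library 2 and 5.32% to 6.86% in the other 5 libraries, and neither gene was called without wild-type library 2 or without knockout library 1. Without wild-type library 3, 4 of them rose.

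Beyond the lists, genes were taken by size among called genes with a mean of at least 50 over the 6 libraries and no overlap. High values in 1 genotype alone can reach that mean, and the lack of overlap is part of the rule, not a result. The rises were led by Gng2, a G protein gamma subunit. It read 168, 183 and 96.1 in the knockout and was low in the wild type, at 6.81, 13.6 and 19.95 (3.44 ± 0.53, limma adjusted p = 4.3e-05). Tlr13, a receptor for bacterial ribosomal RNA in myeloid cells, read 349, 293 and 303 in the knockout and 116, 1.52 and 83.6 in the wild type (3.43 ± 0.75, limma adjusted p = 0.0030). The potassium channel gene Kcna2 read 103, 127 and 76.5 in the knockout and 15.1, 11.4 and 18.9 in the wild type (2.68 ± 0.64, limma adjusted p = 0.0072), and Tfec, a transcription factor of macrophages, rose by 2.81 ± 0.68. Adgre4, an adhesion receptor of myeloid cells, and Naip1, a sensor of bacterial proteins, rose by 2.98 ± 0.84 and 2.86 ± 0.73, and Hao2, an oxidase of 2-hydroxy acids, by 2.83 ± 0.83. Tlr13, Tfec and Adgre4 are myeloid genes, and the macrophage marker sums were higher in the same libraries (7819 to 8767 against 4094 to 4679). Without wild-type library 2 the difference of Tlr13 was 1.66, and Adgre4, Naip1 and Hao2 were not called (2.55, 2.09 and 1.38). The calls of Adgre4 and Hao2 were also lost without knockout library 1, 2 or 3, and that of Tlr13 with robust priors.

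Other genes with large falls included Srgap3, a regulator of the small GTPase Rac, which read 654, 785 and 611 in the knockout and 1963, 1964 and 1938 in the wild type (-1.52 ± 0.14, limma adjusted p = 6.4e-09). The RNA-binding protein gene Celf4 read 33.1, 40.3 and 44.99 in the knockout and 128, 104 and 126 in the wild type (-1.58 ± 0.39, limma adjusted p = 0.0086). Erfe, which encodes erythroferrone, a hormone that lowers hepcidin, read 26.3, 31.6 and 41.9 in the knockout and 102, 159 and 86.7 in the wild type (-1.75 ± 0.45, limma adjusted p = 0.011), and its call was lost without knockout library 1 or wild-type library 2. The muscle-type myosin gene Myo18b (-2.58 ± 0.70) and Ripor2 (-1.61 ± 0.46), an inhibitor of the GTPase RhoA, fell, with calls that depended on single libraries. That of Myo18b was lost without knockout library 3 or wild-type library 1 (-2.41 in the latter), and that of Ripor2 without any 1 library other than knockout library 3 (-1.70 to -1.36). Rsc1a1 read 46.2, 5.38 and 5.66 in the knockout and 146, 125 and 186 in the wild type (-3.58 ± 0.81, limma adjusted p = 0.0041), but it lies within the gene Ddi2, so the reads of the 2 cannot be told apart here. Of 2 gene models named Nnt, the mitochondrial transhydrogenase, ENSMUSG00000116207 read 13.9, 19.7 and 6.32 in the knockout and 173, 101 and 118 in the wild type (-3.29 ± 0.75, limma adjusted p = 0.0042). The other model was not called, so how reads were shared between the models is uncertain. The calls of Rsc1a1 and of this Nnt model were lost without the filter and with robust priors.

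The share of called genes was larger near Mtdh, which is given as a description with no test. Within 5 Mb of its start on chromosome 15, 7 of 40 tested genes rose and 4 fell (27.5%), against 7.83% of all other tested genes. Within 2 Mb it was 6 of 13 (46.2%), within 10 Mb 22.8% and within 20 Mb 19.1%. The called neighbours included Rida, a deaminase of reactive imines, which read 3986, 3728 and 4641 in the knockout and 1991, 1736 and 1839.9 in the wild type (1.15 ± 0.09, limma adjusted p = 2.2e-10), and Vps13b, a lipid transfer protein, which read 2526, 2793 and 2371 in the knockout and 3993, 4160.1 and 4025 in the wild type (-0.67 ± 0.09, limma adjusted p = 3.1e-06). Cpq (-0.85 ± 0.12), a carboxypeptidase, and the poly(A)-binding protein Pabpc1 (-0.49 ± 0.09) fell. The chaperonin subunit Cct5 rose by 0.71 ± 0.11, Ankrd46 by 0.85 ± 0.14 and the mitochondrial folate carrier Slc25a32 by 0.69 ± 0.13. Also called were Tspyl5 (2.61 ± 0.79), Stk3 (0.57 ± 0.14), Zfp706 (0.32 ± 0.10) and Laptm4b (-0.36 ± 0.10). These 4 depended on single libraries. Tspyl5 was lost without knockout library 1 or 2 or wild-type library 1 or 2 (1.93 to 2.80), Stk3 without knockout library 2 (0.42), Zfp706 without any 1 library other than knockout library 3 (0.26 to 0.33), and Laptm4b without knockout library 1 or 2 or wild-type library 1 or 3 (-0.37 to -0.28). The strain background of the alleles was not stated, and its part in the calls near Mtdh was not tested.

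Most genotype differences with TNFa did not pass the test of a departure from the mean of those with TGFb and conditioned medium. That test called 157 genes (1.09%), 31 with a higher and 126 with a lower difference with TNFa, and 66 of them were also called with TNFa itself. The count was 43 without wild-type library 3 of TNFa and 265 without wild-type library 3 of conditioned medium, with 71, 82 and 86 without TNFa wild-type library 1 and knockout libraries 1 and 2. The smallest p-values were those of metabolic genes. Slc7a2, a carrier of cationic amino acids, differed by -0.03 ± 0.08 between genotypes with TNFa, 1.27 ± 0.08 with TGFb and 0.33 ± 0.08 with conditioned medium (departure -0.83 ± 0.10, limma adjusted p = 0.00012). Fabp5, a fatty acid-binding protein, fell with TNFa (-0.66 ± 0.10) and was at 0.29 ± 0.10 and 0.19 ± 0.10 in the other treatments (departure -0.90 ± 0.12, limma adjusted p = 0.00022). The mitochondrial beta-oxidation enzymes Acaa2 and Echs1 departed by -0.87 ± 0.12, limma adjusted p = 0.00022, and by -0.72 ± 0.11, limma adjusted p = 0.0019. Acaa2 had a TNFa value of -0.16 ± 0.10 beside 0.69 ± 0.10 and 0.75 ± 0.10. The retinaldehyde dehydrogenase Aldh1a1 was at 0.23 ± 0.09 with TNFa beside 1.32 ± 0.09 and 0.59 ± 0.09 (departure -0.73 ± 0.11, limma adjusted p = 0.00062).

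Among the list genes described above, the departure passed for Slc7a11 (0.62 ± 0.13, limma adjusted p = 0.015) and Gclc (0.56 ± 0.11, limma adjusted p = 0.012). Gclc differed by 0.65 ± 0.09 with TNFa, -0.22 ± 0.09 with TGFb and 0.40 ± 0.09 with conditioned medium. It also passed for Slc40a1 (0.65 ± 0.13, limma adjusted p = 0.013). The urea cycle gene Cps1 rose in all 3 treatments, by 0.77 ± 0.09 with TNFa, 1.38 ± 0.09 with TGFb and 1.05 ± 0.09 with conditioned medium, and its rise with TNFa was smaller (departure -0.44 ± 0.11, limma adjusted p = 0.032). That of Cps1 was lost in 9 of the 18 fits that left out 1 library (-0.49 to -0.41). Fdps and Ugp2, which fell with TNFa, departed by -0.56 and -0.62. Slc7a11 did not pass without TNFa knockout library 2 or wild-type library 1, Ugp2 without TNFa wild-type library 3 and Fdps without 5 libraries, among them TNFa knockout libraries 1 and 2 and wild-type libraries 2 and 3. Of 44 amino acid breakdown genes 0 passed (limma), while 27 rose with TNFa and 12 had an unadjusted departure p under 0.05. Of 27 genes of TNF receptors and proximal signalling, 11 of IKK and NF-kappaB subunits, 15 feedback inhibitors and 37 TNF effector genes 0 passed either (limma), with 6, 2, 3 and 10 at an unadjusted p under 0.05. Over all 14455 tested genes, 157 (1.09%) passed and 1980 had an unadjusted departure p under 0.05. At that share, 0 passing genes in lists of this size does not set these lists apart from other genes. Of 35 fatty acid oxidation genes and of 23 urea cycle and nitrogen transport genes 5 each passed.

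**Figure D5:**
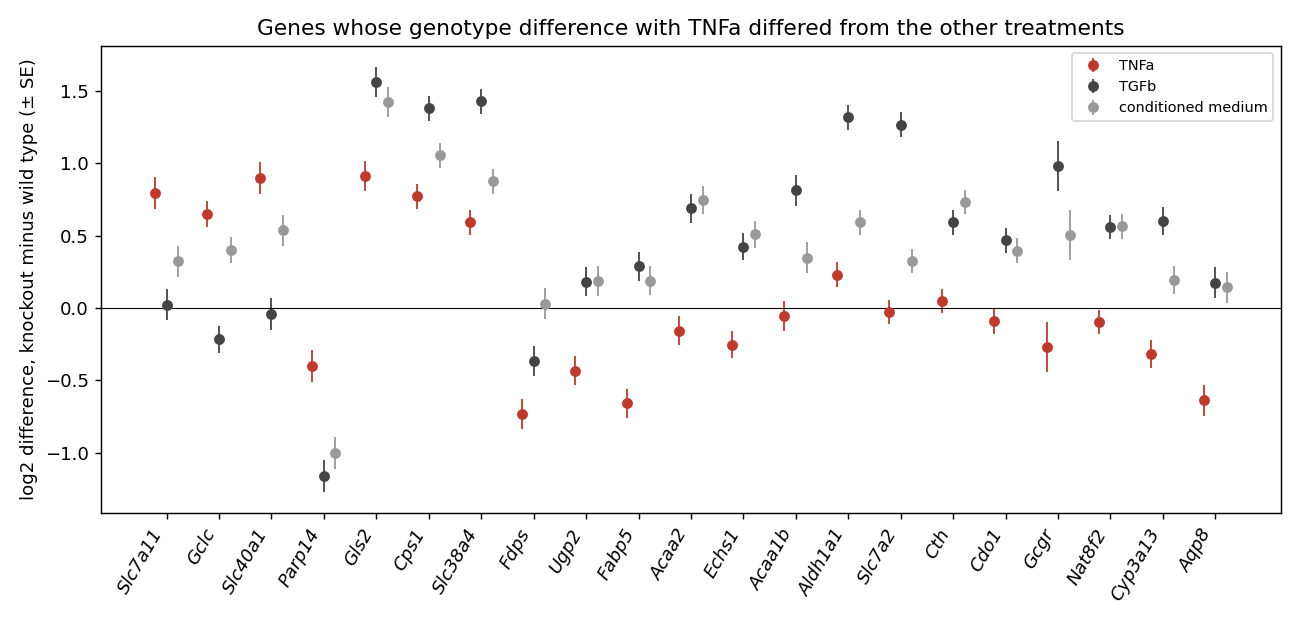
Log2 genotype difference with its standard error (y axis) in each treatment for 21 genes that passed the test of departure, red for TNFa, dark grey for TGFb and light grey for conditioned medium. Slc7a11, Gclc and Slc40a1 lie highest with TNFa, and from Fdps onward most TNFa values lie below 0 and below both other treatments.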

How the data were processed

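RNA of TNFa-, TGFb- and conditioned medium-treated hepatocytes was sequenced in 18 libraries. The RNeasy kit gave total RNA, and ribosomal RNA was removed before PrepX library preparation, per the labels' protocols. The table the authors deposited holds 1 normalized signal per gene and library, normalized by DESeq2 per the file name. Partek, STAR 2.7.8a, DESeq2 and the mm39 build are named in the submitters' processing notes, without order or settings. Of values up to 200 estimated reads, 74.1% to 75.6% per TNFa library lay within 0.05 reads of a whole number, so reads were not recovered and no count test was run. Gene names were taken from the deposited table, which lists 16873 genes, and each of the 18 value columns was matched to its library.

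Values were put on the log2(value + 1) scale, the 14455 genes that reached 10 in 3 or more of 18 libraries were kept, and limma-trend 3.58.1 in R 4.3.3 was fitted with 6 group means over 18 libraries, which then share 1 estimate of the spread (12 residual and 17.0 prior degrees of freedom). Two-sided p-values were adjusted by the Benjamini-Hochberg method over all tested genes and called below 0.05. The second contrast was the TNFa difference minus the mean of the TGFb and conditioned medium differences. Gene lists are described by counts and medians, without set tests. The members and lists were chosen with earlier results of these data known. Genes were named as Mtdh, up to 12 rises and 12 falls with a mean of at least 50 and no overlap, up to 5 called members per list, list members by role, called genes within 5 Mb of Mtdh, and 8 genes of the second contrast. Some genes that this rule takes are not reported here.

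Knockout and wild-type libraries with the same number had correlations of deviations near 0 (0.0043, 0.022 and 0.014), and libraries were not paired. These were still above all correlations between libraries of different number, which ran from -0.018 to 0.0027. A fit with the replicate block was run as an alternative. Depth is estimated as the sum of values divided by the value of 1 read. The model was tested on simulated data. The alternatives were 3 other scalings, pseudocounts of 0.5 and 5, no filter, a mean of at least 50, the replicate block, library weights, robust priors, the 6 TNFa libraries alone and leaving out each library. Promoter sequences were read from RefSeq for GRCm38.p6, apart from the mm39 coordinates of the deposited table. Tables were made with pandas 2.3.3 and figures with matplotlib 3.10.9 in Python 3.11.15.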

Additional observations from a re-analysis of the deposited data

Results flagged for a closer look

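The values here are from the test of whether the genotype difference with TNFa departed from the mean of the differences with TGFb and conditioned medium. A negative departure means a difference with TNFa below that mean, and each passed at a limma adjusted p below 0.05. Because it is taken from a mean, a departure can come from TGFb or from conditioned medium alone. It does not by itself show that a gene is particular to TNFa. Fabp5 departed by -0.90, Acaa2 by -0.87 and Echs1 by -0.72. The peroxisomal thiolase Acaa1b departed by -0.64, with a genotype difference of -0.06 ± 0.11 with TNFa, 0.81 ± 0.11 with TGFb and 0.35 ± 0.11 with conditioned medium. The citrate carrier Slc25a1 departed by -0.54. The departures of Fabp5, Acaa2, Echs1 and Slc25a1 passed in each fit that left out 1 of the 18 libraries.

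Amino acid and nitrogen genes departed too. The values were -0.83 for Slc7a2, -0.44 for Cps1, -0.58 for Gls2, -0.41 for Gpt2 and -0.52 for Cdo1. The amino acid carrier Slc38a4 departed by -0.56, its rise with TNFa being 0.59 ± 0.09 beside 1.43 ± 0.09 and 0.88 ± 0.09. Cystathionine gamma-lyase (Cth) departed by -0.61, with 0.05 ± 0.08 with TNFa beside 0.59 ± 0.08 and 0.73 ± 0.08. Among glucose genes, Ugp2 departed by -0.62 and Gapdh by -0.54, and the glucagon receptor Gcgr by -1.01, with -0.27 ± 0.17 beside 0.98 ± 0.17 and 0.51 ± 0.17.

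The genes with a positive departure were Slc7a11 (0.62), Gclc (0.56), Slc40a1 (0.65), Gng2 (2.81) and the ADP-ribosyltransferase Parp14 (0.68). The genotype difference of Parp14 was -0.40 ± 0.11 with TNFa, -1.16 ± 0.11 with TGFb and -0.999 ± 0.11 with conditioned medium. Its call with TNFa was lost without knockout library 2 (-0.33) or wild-type library 3 (-0.35), with quantile normalization (-0.35) and without the filter (limma). Of the remaining genes with a departure, Aldh1a1 was at -0.73, Fdps at -0.56, Vegfa at -0.48, the acetyltransferase Nat8f2 at -0.66, Cyp3a13 at -0.72, the aquaporin Aqp8 at -0.79, Cyp3a44 at -0.51 and the Nnt model ENSMUSG00000116207 at -3.87. Departures of Gapdh and Cyp3a44 were lost in 12 and 15 of the 18 fits without 1 library. Those of Cps1, the Nnt model, Gpt2, Fdps and Gng2 were lost in 9, 7, 6, 5 and 3 of these fits. Those of Cdo1, Gls2, Gcgr and Slc7a11 were lost in 2 each, and those of Acaa1b, Ugp2 and Vegfa in 1 each. That of the Nnt model was also lost without the filter and with robust priors.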

How the results depend on the processing

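Every alternative kept the direction of every named called gene that it tested. Of the 187 named genes called with TNFa, 143 stayed called in each of the 17 settings that tested them, and Mtdh was among them. The settings were 11 alternatives and 6 fits without 1 TNFa library. A gene that a setting's filter removed, such as that of a mean of at least 50, was not counted as lost there. The number of called genes (1141) ran from 989 without the filter to 1506 with library weights over the 11 alternatives, and from 783 to 922 when 1 library was left out. Rises (606) ran from 439 to 538 and falls (535) from 284, without wild-type library 3, to 433 in those fits. Scaling to equal totals gave 702 rises and 426 falls. The replicate block called 1049 genes, 573 higher and 476 lower, against 1141 without it, and the departure test with the block called 131. The labels link same-numbered libraries by their number alone. The departure count (157) was 91 without the filter and 354 with library weights, and ran from 43 to 265 over the 18 fits without 1 library; the cause was not tested. List medians ran from 0.57 to 0.69 for amino acid breakdown, from -0.42 to -0.21 for interferon-stimulated genes and from -0.30 to -0.20 for cholesterol synthesis over the 17 settings. With 3 libraries per group and 20.3 M to 30.0 M estimated reads, the number of libraries and this depth limit what can be shown for low genes.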

Other observations

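Of 28 complement genes, most of them hepatocyte products, 2 rose and 3 fell. C9, the pore-forming component of complement, read 567, 639 and 668 in the knockout and 1045, 1089 and 1000.4 in the wild type (-0.74 ± 0.13, limma adjusted p = 0.00015). C1qb and C1qc, which macrophages make, rose by 1.53 ± 0.36 and 1.92 ± 0.39, beside macrophage marker sums of 7819 to 8767 in the knockout and 4094 to 4679 in the wild type. Heparin cofactor II (Serpind1), which inhibits thrombin, read 1657, 1822 and 1544 in the knockout and 1163, 1013 and 852 in the wild type (0.74 ± 0.11, limma adjusted p = 2.5e-05). The plasmin inhibitor Serpinf2 rose by 0.47 ± 0.08 and plasma kallikrein (Klkb1) by 0.46 ± 0.11. Of 28 coagulation genes 5 rose and 2 fell, with 3 or 4 rises when 1 library was left out. The falls numbered 0 without knockout library 1 or 2 or wild-type library 1 or 3 and 1 without knockout library 3, and 1 with quantile normalization, equal totals, no filter, the replicate block, robust priors or the 6 TNFa libraries alone.

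Genes of retinoid metabolism rose at 5 of 29 tested and fell at 1. Cyp26a1 and Cyp26b1, which degrade retinoic acid, rose by 0.90 ± 0.18 and 1.63 ± 0.25. Alcohol dehydrogenase Adh1 read 9482, 9125 and 10273 in the knockout and 6352, 5609 and 6142 in the wild type (0.67 ± 0.08, limma adjusted p = 4.2e-07). Bco1, which cleaves beta-carotene, fell (-0.80 ± 0.14). Of 22 genes of the hypoxia response 2 rose and 4 fell. The growth factor Vegfa read 9834, 9984 and 10305 in the knockout and 14509, 14079 and 13810.4 in the wild type (-0.49 ± 0.08, limma adjusted p = 0.00010), and Ndrg1 (-0.39 ± 0.08), Bnip3 (-0.46 ± 0.12) and Pdk1 (-0.32 ± 0.08) fell as well. The oxidase Ero1a rose by 0.41 ± 0.08 and was called in all 17 settings, and Adm rose by 0.35 ± 0.11, a call lost without knockout library 1, 2 or 3 or wild-type library 2 and without the filter. Bnip3 was lost without knockout library 1 or 3 and without the filter, and Pdk1 without knockout library 3 or wild-type library 3. With library weights 7 genes of that list fell. The receptors Egfr (-0.37 ± 0.08) and Erbb3 (-0.54 ± 0.11) fell, and the clock repressor Nr1d2 rose by 0.50 ± 0.09.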
